A study of Mus musculus with 12 samples.

Results

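Telomerase and the H/ACA ribonucleoproteins share most of their parts, and the 7 genes Terc, Tert, Dkc1, Nop10, Nhp2, Gar1 and Naf1 encode the RNA and the main proteins of both. These genes were chosen by name, and each was read from its probe set with 1 gene symbol and the highest mean over all 12 arrays. All 7 had such a probe set, and no member had more than 1, among 19309 genes measured. They were compared over 3 groups of FVB/N mice, all profiled from the thymus on whole-transcript expression arrays. The normal group was non-tumor thymocytes of wild-type animals at 24 days of age (3 arrays). The control group was MYC-induced T-cell lymphoma with a wild-type genotype label (5 arrays), and the deficient group was MYC-induced T-cell lymphoma lacking the DNA methyltransferase Dnmt3a in blood-forming cells (4 arrays). Both tumor groups carried MYC and were taken at the terminal stage. The labels name neither the MYC construct, nor what drove the Dnmt3a deletion, nor the age of the tumor-bearing mice, so age and tumor state cannot be told apart.

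Telomerase adds DNA repeats to chromosome ends. Terc is its RNA subunit and carries the template, and Tert is the reverse transcriptase that copies it. The end of Terc folds into an H/ACA domain, which is bound by dyskerin (Dkc1), Nop10, Nhp2 and Gar1. The same proteins bind small H/ACA guide RNAs, which direct dyskerin to convert chosen uridines of ribosomal and spliceosomal RNA to pseudouridine. Naf1 accompanies these particles during assembly and is replaced by Gar1 as they mature. Tert and Dkc1 are known targets of the MYC transcription factor, and inherited faults in several of these genes cause dyskeratosis congenita, a disease of short telomeres.

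RefSeq start regions (build GRCm38.p6) were found for 5 of the 7 members: Tert, Dkc1, Nop10, Nhp2 and Gar1. The 250 bases before the start are shown for 3 of them. Dkc1 and Nop10 rose in both tumor groups, and Tert changed least from normal thymocytes to control tumors. Nhp2 and Gar1, which are not shown, also rose in both tumor groups. They held none of the forms searched below, whereas Dkc1 and Nop10 each held 1. Each region shown is written 5′ to 3′ on the strand of the gene, and capitals mark a match on either strand to the E-box that MYC can bind or a variant of it. The forms searched were the palindrome CACGTG, the variant with another middle pair, which reads CACATG, and the variant with another last pair, which reads CACGCG.
Tert (chr13:73626661-73626910, plus strand): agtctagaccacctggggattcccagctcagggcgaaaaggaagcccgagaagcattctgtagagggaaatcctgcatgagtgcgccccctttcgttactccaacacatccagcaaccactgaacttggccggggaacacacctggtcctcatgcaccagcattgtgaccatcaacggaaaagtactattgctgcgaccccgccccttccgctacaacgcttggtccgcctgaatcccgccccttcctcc
Dkc1 (chrX:75095604-75095853, plus strand): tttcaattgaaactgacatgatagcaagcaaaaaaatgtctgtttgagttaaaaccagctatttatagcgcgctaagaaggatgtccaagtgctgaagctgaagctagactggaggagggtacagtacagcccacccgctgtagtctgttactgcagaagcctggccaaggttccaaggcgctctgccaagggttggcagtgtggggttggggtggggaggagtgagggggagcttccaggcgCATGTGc
Nop10 (chr2:112261676-112261925, plus strand): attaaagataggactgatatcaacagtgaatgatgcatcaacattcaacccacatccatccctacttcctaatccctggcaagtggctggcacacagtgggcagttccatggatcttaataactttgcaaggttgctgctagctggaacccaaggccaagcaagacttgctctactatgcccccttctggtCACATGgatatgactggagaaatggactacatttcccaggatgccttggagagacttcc

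The palindrome CACGTG was in none of the 5 regions, and 6.02% of 32851 RefSeq regions of the same length held it. CACATG, read on either strand, was in Dkc1, from 7 to 2 bases before the start, and in Nop10, from 59 to 54 bases before it, against 12.3% of all regions. CACGCG was in none of the 5, against 7.62%. These are matches of letters in a short window and show nothing about binding.

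Before the members are described, a few facts of the arrays bear on them. Dnmt3a was 7.19 to 7.62 in deficient tumors and 8.19 to 9.57 in control tumors on the log2 scale, without overlap, as the labels say. The mouse Myc probe set was lower in both tumor groups than in normal thymocytes, by log2 -2.95 and -3.19, and need not measure the MYC that drove the tumors. Array medians were 6.40 to 6.58, but the 75th percentile was 8.50 to 8.60 in the deficient tumors and in control tumors 1 and 2 and 8.13 to 8.30 on the other arrays. The 10 measured thymocyte markers were clearly present (mean log2 9.99 to 11.60 per array). In each tumor group 4 of them were lower, where 11.3% of all genes were lower in control and 19.0% in deficient tumors. They included the T cell receptor chain gene Cd3d (-1.01 in control, -1.49 in deficient tumors). Ptprc was the 1 marker with a higher mean in each tumor group (1.14 and 0.64, not called). Neutrophil markers (S100a8, S100a9, Elane, Mpo, Ltf, Camp and Ngp, none of the 7 called in any comparison) averaged 8.49 and 8.43 in control tumors 3 and 4, 6.75 to 7.10 in normal thymocytes and 5.57 to 6.12 on the other tumor arrays. Adipocyte markers (Adipoq, Fabp4, Plin1, Cidec and Lpl, 0 of 5 called) averaged 9.16 in control tumor 2 and 5.28 to 5.61 elsewhere. Macrophage markers (7 genes) averaged 6.48 to 6.71 in normal thymocytes, 6.10 to 7.93 in control tumors and 6.98 to 7.85 in deficient tumors. Of these, Itgam was called higher in control tumors (1.22, limma adjusted p = 0.00157), and Itgam (0.86, 0.0129) and Adgre1 (0.86, 0.022) in deficient tumors. Of 5 B cell markers, Cd79b, a subunit of the B cell receptor, was called 1.63 higher in deficient than in control tumors (limma adjusted p = 0.0144), 0.76 higher than in normal thymocytes (0.0256), and control tumors differed from normal thymocytes in it by -0.87 (0.0153). Cd79a was called lower in deficient tumors than in normal thymocytes (-1.41, limma adjusted p = 0.0423), and the other 3 were not called in any comparison. Since the labels leave unsaid whether different mice gave the arrays of a group, the p-values reflect spread among these arrays, which may be technical, and precision is limited by how few there are. In such bulk RNA, fewer cells of a type and less RNA per cell cannot be told apart.

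In control tumors the transcripts of the 4 core H/ACA proteins and of Naf1 were higher than in normal thymocytes. The telomerase-specific Terc and Tert did not pass the test. The calls of Nhp2 and Gar1 depended on the scaling and on single arrays, as given below. Of the 7 members 5 rose and none fell, against 13.0% of all genes higher and 11.3% lower (limma, adjusted p under 0.05 over all genes). The members' median log2 difference was 1.24, against -0.08 over all genes. In 5 members every control tumor lay above every normal array, which held for 13.8% of all genes. In deficient tumors all 7 members were higher than in normal thymocytes, against 18.7% of all genes higher and 19.0% lower, with a median difference of 1.51 against -0.10. All 7 also lay wholly above the normal arrays, as did 23.0% of all genes. Both comparisons use the same 3 normal arrays. Between the tumor groups no member passed the test, where 0.590% of genes were higher and 0.228% lower in deficient tumors. No member separated the tumor groups completely, whereas 3.80% of all genes lay wholly higher in deficient tumors. Before adjustment the limma p between tumor groups was 0.00769 for Terc, 0.0391 for Tert and 0.0244 for Naf1. Their exact permutation p was 0.0635, 0.0714 and 0.0635. How many of all genes reach such unadjusted values was not counted, so these are descriptions and no result about the members.

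**Figure D1:**
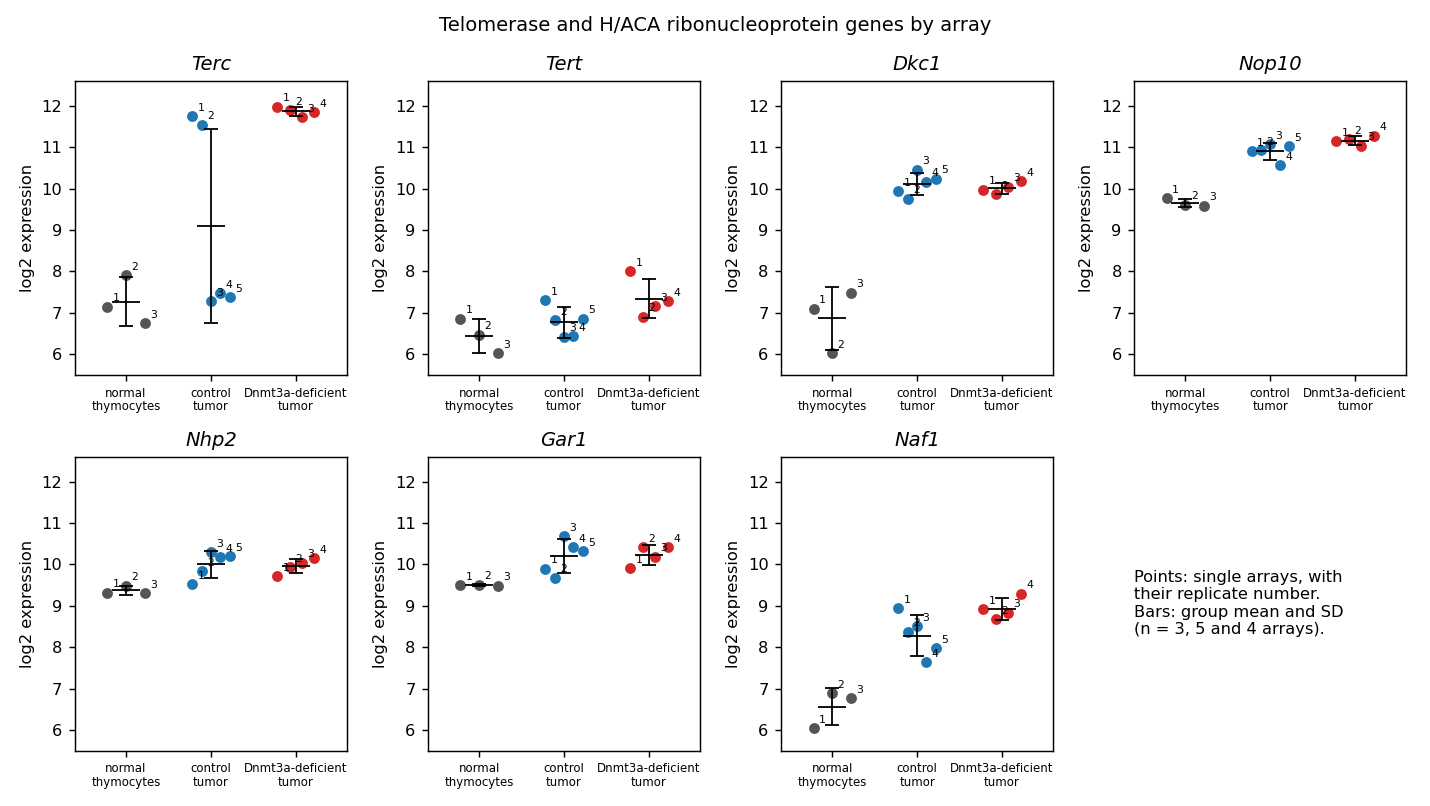
Log2 expression of the 7 genes (vertical axis, the same in every panel) in normal thymocytes, control tumors and Dnmt3a-deficient tumors; points are single arrays with their replicate number, bars are the group mean and SD. Terc was near 7 in control tumors 3, 4 and 5 and above 11 in control tumors 1 and 2, and Dkc1 was above 9 on all 9 tumor arrays.

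Terc, the RNA template of telomerase, had the widest spread. Its log2 expression was 7.15, 7.91 and 6.75 in normal thymocytes, 11.75, 11.54, 7.28, 7.48 and 7.38 in control tumors 1 to 5, and 11.98, 11.90, 11.73 and 11.85 in deficient tumors. Control tumors 3, 4 and 5 thus lay within the range of normal thymocytes, while control tumor 1 lay within the range of the deficient tumors and control tumor 2 just under it, and no array lay between 7.91 and 11.54. The 5 control tumors had an SD of 2.34, the 3 normal samples 0.59 and the 4 deficient tumors 0.11. Deficient tumors were higher than normal thymocytes by log2 4.59 (SE 1.007, 24.2-fold, limma adjusted p = 0.0031), the fourth largest rise of all genes in that comparison. With control tumors the difference from normal thymocytes was 1.82 (95% interval -0.26 to 3.89, limma adjusted p = 0.198). The difference between deficient and control tumors was 2.78 (95% interval 0.87 to 4.69, limma adjusted p = 0.126; exact two-sided permutation p = 0.0635).

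Which control tumors entered decided the Terc comparisons. Without control tumors 1 and 2 the excess of deficient over control tumors was 4.48 (limma adjusted p = 7.5e-07), and the difference of control tumors from normal thymocytes was 0.11 (limma adjusted p = 0.793). Control tumors 1 and 2 are those with high Terc, so leaving out either or both widens the tumor gap by construction. The p-values of such fits are descriptions and no support for a difference. Without control tumor 1 alone the excess of deficient tumors was 3.45 (limma adjusted p = 0.0358), and without control tumor 2 alone it was 3.39 (limma adjusted p = 0.0282). Without control tumors 3 and 4, whose neutrophil markers stood apart, it was 1.64 (limma adjusted p = 0.528), and the rise from normal thymocytes to control tumors was 2.96 (limma adjusted p = 0.0308). Control tumors 3 and 4 are among those with low Terc. Leaving them out thus narrows the tumor gap and widens the rise by construction, and these p-values too are only descriptions. The 6 arrays with high Terc were the 6 with the higher 75th percentile, as described above. The macrophage marker C1qb, a complement subunit, was high on the same 6 arrays: 8.73 and 10.16 in control tumors 1 and 2 and 8.41 to 9.53 in deficient tumors, against 5.53 to 6.28 in control tumors 3 to 5 and 6.80 to 7.30 in normal thymocytes. Adgre1 was also highest on these arrays, narrowly (5.56 to 6.44, against 4.81 to 5.53), and the other 5 macrophage markers did not separate them. Whether all arrays were normalized together is not stated, and the part of these differences between arrays in the Terc result was not tested. After a second quantile normalization the Terc differences were 1.72 for control tumors against normal thymocytes (limma adjusted p = 0.213), 4.37 for deficient tumors against normal thymocytes (0.00376) and 2.65 between tumor groups (0.161).

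Tert, the reverse transcriptase, lay below the 75th percentile of every array, and the deposited values hold no detection call. Its log2 expression was 6.86, 6.47 and 6.03 in normal thymocytes, 7.31, 6.82, 6.42, 6.44 and 6.86 in control tumors 1 to 5, and 8.01, 6.91, 7.16 and 7.28 in deficient tumors. Deficient tumors lay just above normal thymocytes and overlapped control tumors. The difference of deficient tumors from normal thymocytes was 0.89 (SE 0.284, 1.85-fold, limma adjusted p = 0.0253; exact permutation p = 0.0571). It lost its call without deficient tumor 1 (0.67, limma adjusted p = 0.0671), without normal thymocytes 2 (0.90, 0.0664) and without normal thymocytes 3 (0.68, 0.12). Control tumors differed from normal thymocytes by 0.32 (95% interval -0.27 to 0.90, limma adjusted p = 0.437) and deficient from control tumors by 0.57 (95% interval 0.03 to 1.11, limma adjusted p = 0.222). Without control tumors 1 and 2 the latter was 0.77 (limma adjusted p = 0.0493). That fit leaves out control tumor 1, the highest control tumor in Tert, so its p-value is only a description.

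Dkc1, which encodes the pseudouridine synthase dyskerin, rose most among the protein genes. Its log2 expression was 7.10, 6.03 and 7.49 in normal thymocytes, 9.94, 9.76, 10.46, 10.17 and 10.24 in control tumors, and 9.97, 9.87, 10.05 and 10.18 in deficient tumors. Every tumor array was far above every normal array, and the tumor groups overlapped. The lowest normal array was replicate 2, which was also the lowest for the chaperone gene Hsp90aa1 (7.57, against 9.31 and 10.04). It was the lowest for other genes named below too, such as Nop58 (6.45, against 7.73 and 7.97) and Atrx (6.18, against 6.97 and 7.98). Terc, Naf1, Nhp2 and Gar1 were instead highest on it among the normal arrays. The rise was 9.46-fold in control tumors (log2 3.24, SE 0.267, limma adjusted p = 3.7e-06) and 8.84-fold in deficient tumors (log2 3.14, SE 0.279, limma adjusted p = 3.8e-06). Without normal thymocytes 2 the rises were log2 2.82 and 2.72, the lowest of all settings run. Dkc1 had the 17th largest rise of all genes in control tumors and the 59th in deficient tumors. Deficient and control tumors differed by -0.10 (95% interval -0.63 to 0.43, limma adjusted p = 0.851).

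Nop10, the smallest core protein, which contacts the catalytic domain of dyskerin, also rose in both tumor groups. Its log2 expression was 9.77, 9.61 and 9.59 in normal thymocytes, 10.90, 10.93, 11.07, 10.56 and 11.03 in control tumors, and 11.14, 11.19, 11.04 and 11.28 in deficient tumors. The normal arrays stood apart from all tumors, and the lowest deficient tumor lay just under the highest control tumor. Nop10 rose by log2 1.24 in control tumors (SE 0.138, 2.36-fold, limma adjusted p = 3.3e-05) and by 1.51 in deficient tumors (SE 0.144, 2.84-fold, limma adjusted p = 6.5e-06). Between tumor groups the difference was 0.27 (95% interval -0.01 to 0.54, limma adjusted p = 0.257). The exact permutation test of Nop10 alone gave p = 0.0397, which was 1 of 7 such tests in that comparison and is not adjusted for them.

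Naf1, the assembly factor of nascent H/ACA particles, had log2 values of 6.04, 6.88 and 6.76 in normal thymocytes, 8.94, 8.37, 8.50, 7.63 and 7.97 in control tumors, and 8.91, 8.67, 8.83 and 9.29 in deficient tumors. All tumors were above all normal arrays, and control tumor 1 lay among the deficient tumors. The rise was log2 1.72 in control tumors (SE 0.275, 3.30-fold, limma adjusted p = 4.9e-04) and 2.37 in deficient tumors (SE 0.288, 5.16-fold, limma adjusted p = 4.1e-05). Deficient tumors exceeded control tumors by 0.64 (95% interval 0.10 to 1.19, limma adjusted p = 0.184). This became 0.89 (limma adjusted p = 0.02) without control tumors 1 and 2. That fit leaves out control tumor 1, the highest control tumor in Naf1, so its p-value is only a description.

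Nhp2 and Gar1, the core protein that helps hold the RNA and the one that completes the mature particle, rose least of the core. Nhp2 was 9.31, 9.48 and 9.30 in normal thymocytes, 9.52, 9.83, 10.30, 10.17 and 10.20 in control tumors, and 9.72, 9.93, 10.04 and 10.15 in deficient tumors. Gar1 was 9.49, 9.51 and 9.48 in normal thymocytes, 9.89, 9.68, 10.68, 10.42 and 10.32 in control tumors, and 9.90, 10.42, 10.18 and 10.41 in deficient tumors. In both genes the lowest control tumors were 1 and 2, the arrays with high Terc, and all tumors lay above the normal arrays, in Nhp2 narrowly (9.52 against 9.48). Nhp2 rose by log2 0.64 in control tumors (SE 0.181, limma adjusted p = 0.0199) and 0.59 in deficient tumors (SE 0.189, 0.0252). Gar1 rose by 0.70 (SE 0.211, limma adjusted p = 0.027) and 0.73 (SE 0.22, 0.0193).

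The Nhp2 and Gar1 calls had the highest adjusted p of the core and depended on the scaling. After a second quantile normalization the rises in control tumors were 0.49 for Nhp2 (limma adjusted p = 0.0939) and 0.57 for Gar1 (0.0919), and in deficient tumors 0.34 (0.243) and 0.50 (0.135). After cyclic loess normalization they were 0.47 (limma adjusted p = 0.12), 0.53 (0.126), 0.27 (0.376) and 0.41 (0.23). Leaving out single arrays also ended calls: for Nhp2 in control tumors without normal thymocytes 1 or 3, for Gar1 in control tumors without any 1 of the 3 normal arrays or control tumor 3 or 4, for Nhp2 in deficient tumors without normal thymocytes 1 or 3 or deficient tumor 3 or 4, and for Gar1 in deficient tumors without any 1 normal array or deficient tumor 4. The limma adjusted p in those fits was 0.0513 to 0.0777. Without control tumors 3 and 4 together, Nhp2 and Gar1 differed between control tumors and normal thymocytes by 0.48 (limma adjusted p = 0.0863) and 0.47 (0.105). Between tumor groups Nhp2 differed by -0.05 (95% interval -0.40 to 0.31) and Gar1 by 0.03 (95% interval -0.39 to 0.45), with signs that turned with the scaling.

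**Figure D2:**
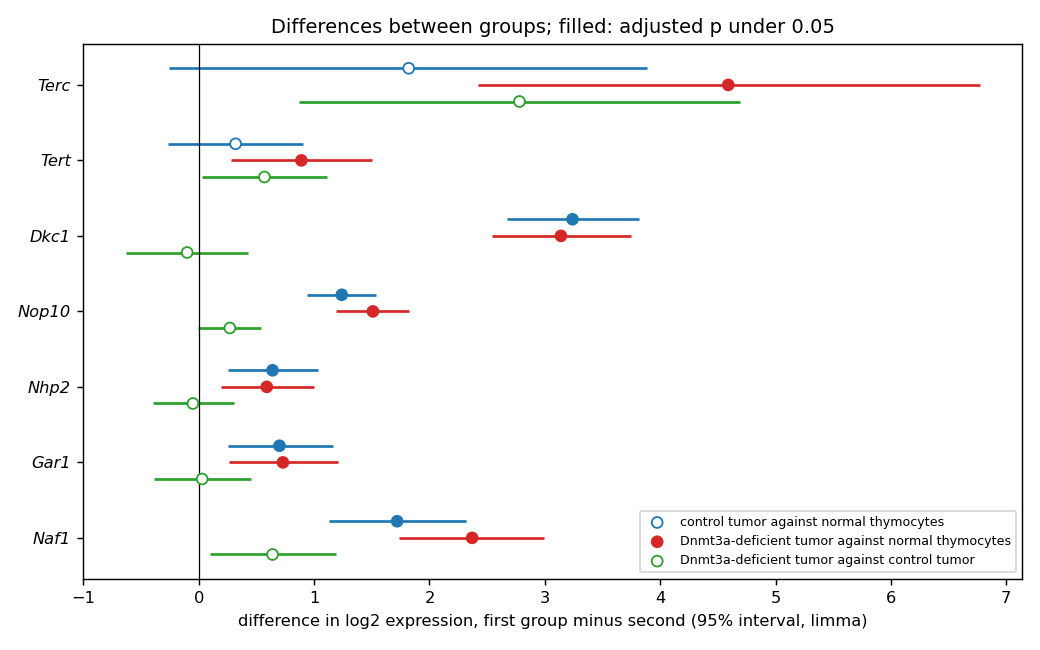
Log2 differences of the 7 genes in the 3 comparisons (horizontal axis, first group minus second), with limma's 95% intervals; filled points passed an adjusted p under 0.05. Dkc1 lies above 3 in both comparisons with normal thymocytes and at -0.10 between tumor groups, and the intervals of Terc are the widest.

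The members did not vary together in all arrays. After each gene's group means were taken off, Gar1 and Nhp2 deviated together (r = 0.82 over 12 arrays) and both deviated against Terc (r = -0.81 and -0.80), while Terc and Naf1 had r = 0.55 and Terc and Tert 0.48. These are descriptions: the 12 arrays share groups, and control tumors 1 and 2 set most of the deviation of Terc. The genes most like Terc over the 12 arrays were Uqcc2 (r = 0.994), an assembly factor of respiratory complex III, Cox6b1 (0.993), a subunit of cytochrome c oxidase, and Srrd (0.99). Uqcc2 was 6.08 to 6.79 in normal thymocytes, 9.63 and 9.77 in control tumors 1 and 2, 6.01 to 6.45 in control tumors 3 to 5, and 9.91 to 10.17 in deficient tumors. The same 6 arrays were high for Uqcc2 as for Terc, which follows from choosing Uqcc2 by its correlation with Terc. The genes most like Tert were Pidd1 (0.918), Ep400 (0.911) and Alg13 (0.906), and those most like Dkc1 were Smc1a (0.995), which encodes a cohesin subunit, the ubiquitin ligase Rlim (0.994) and Otud6b (0.993).

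**Figure D3:**
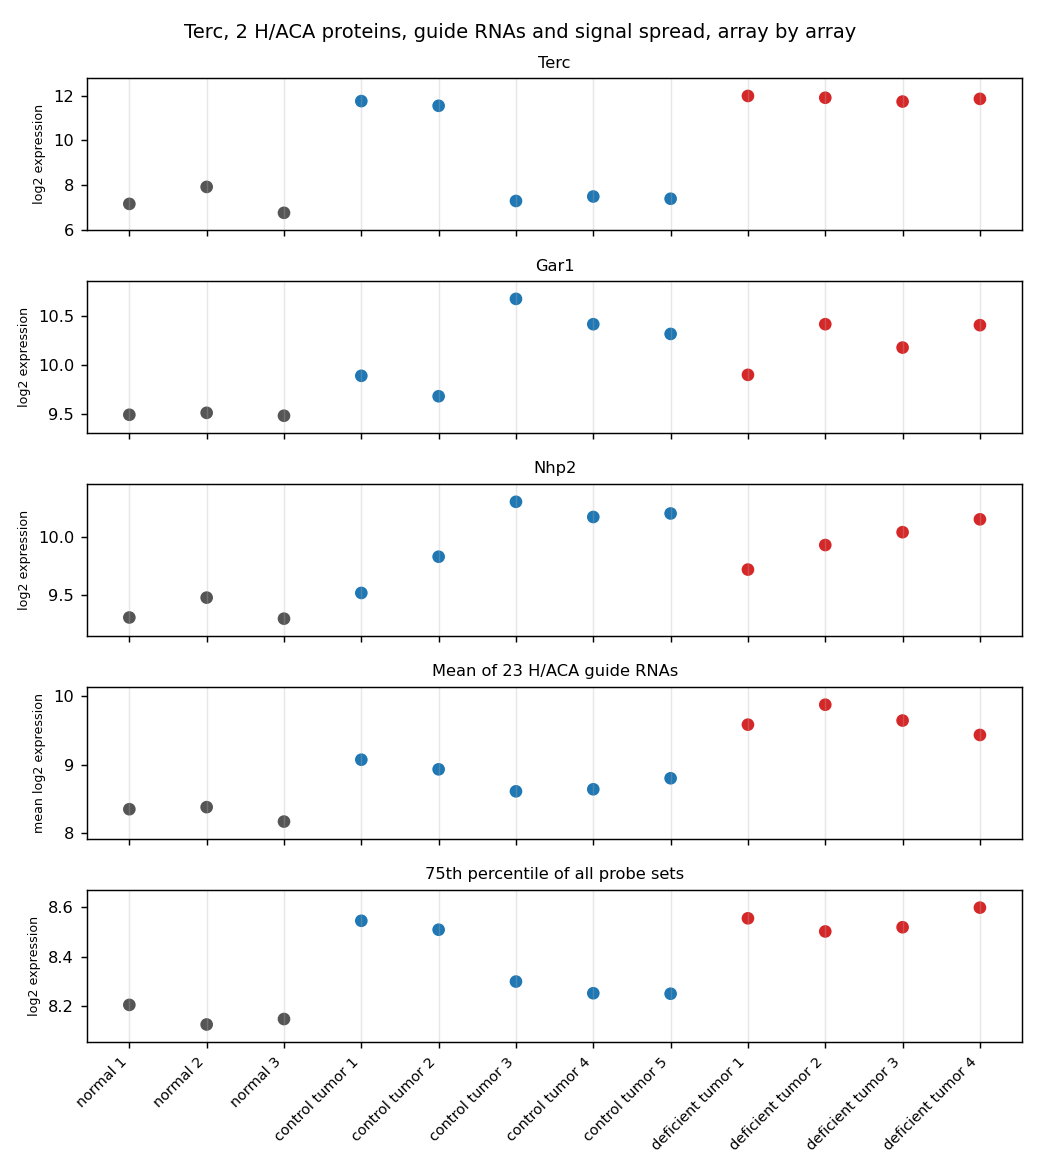
Values array by array, from top to bottom: log2 expression of Terc, Gar1 and Nhp2, the mean log2 expression of 23 RNAs listed by symbol as H/ACA guides, and the 75th percentile of all probe sets; each vertical axis has its own range. Control tumors 1 and 2 resemble the deficient tumors in Terc and in the 75th percentile and are the lowest control tumors in Gar1 and Nhp2, while the guide RNA mean of all 5 control tumors is below that of every deficient tumor.

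The small RNAs that the core proteins bind were read from 23 genes taken by symbol (starting Snora or Scarna), called H/ACA guide RNAs here. A Scarna symbol does not itself show the H/ACA class, and the class was not checked gene by gene. The mean over the 23 was 8.17 to 8.38 in normal thymocytes, 8.61 to 9.07 in control tumors and 9.43 to 9.87 in deficient tumors, so the 3 groups did not overlap. Control tumors 1 and 2 had the highest means of their group, 9.07 and 8.93. Single RNAs split the control tumors in either direction. Snora52 was 12.87 and 12.91 in control tumors 1 and 2, near deficient tumors (12.95 to 13.17), and 10.62 to 11.04 in control tumors 3 to 5. Snora41 was 5.38 and 5.54 in control tumors 1 and 2 and 7.29 to 7.73 in control tumors 3 to 5. Of the 23, 7 were higher and 1 was lower in control tumors than in normal thymocytes, with a median difference of 0.49, and 16 were higher and 1 lower in deficient tumors, with a median of 1.49. Over all genes 13.0% were higher and 11.3% lower in control tumors, and 18.7% and 19.0% in deficient tumors. The 7 became 4 without any 1 of the 3 normal arrays and 10 without control tumors 3 and 4 (median 0.74). Between tumor groups the median was 0.91, against -0.01 over all genes. There 6 were higher in deficient tumors and none was lower, against 0.590% and 0.228% of all genes. Snora73a and Snora73b, guide RNAs of a kind required for cleavage of precursor ribosomal RNA, were among them. Snora73a was 9.31, 9.27 and 9.01 in normal thymocytes, 10.39, 10.77, 9.88, 9.54 and 9.81 in control tumors, and 11.36, 12.12, 11.74 and 11.52 in deficient tumors, a difference between tumor groups of 1.61 (SE 0.235, limma adjusted p = 0.0144). Snora33 showed the largest such difference, 1.95 (SE 0.282, limma adjusted p = 0.0144).

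Snora75 rose in both tumor groups, by log2 2.46 and 3.12 (limma adjusted p = 1.5e-06 and 3.3e-07), and Scarna17 fell, by log2 -0.77 (limma adjusted p = 0.0419) and -1.24 (limma adjusted p = 0.00272). Whether Scarna17 is an H/ACA guide was not checked, so this fall need not concern RNAs that the core proteins bind. The count of 6 between tumor groups was 5 after a second quantile normalization, 11 with each array centred on its median, and 16 higher and 2 lower without control tumors 1 and 2. That last fit called 4886 of all 19309 genes. The count of guide RNAs was 0 without control tumors 3 and 4 (median 0.66) and in a fit of the tumor arrays alone (median 0.91). Leaving out 1 array gave 13 without control tumor 1, 14 without control tumor 2, 2 without control tumor 3, 3 without control tumor 4, 2 without deficient tumor 4, and 4 to 6 otherwise. Most of these RNAs lie in introns of host genes and some are near-identical copies, so a probe set may also measure the host or a copy.

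Factors that mature telomerase RNA or assemble these particles were read from a list of 17, of which 15 were measured. Of the 15, 9 were higher and 1 was lower in control tumors, with a median of 0.84, and 10 were higher and 1 lower in deficient tumors, with a median of 0.89. The shares over all genes were 13.0% higher and 11.3% lower in control tumors, and 18.7% and 19.0% in deficient tumors. The chaperone Hsp90aa1 rose by 3.18 and 3.33, Tgs1, which modifies the cap of small RNAs, by 2.04 and 2.75, and Nolc1, a chaperone of nucleolar particles, by 1.86 in control and 2.33 in deficient tumors. Shq1, which holds dyskerin before assembly, rose by 1.38 and 1.62, and Pinx1, a nucleolar telomerase inhibitor, by 1.72 and 2.43. Single genes of the list split the control tumors in either direction. Tgs1 was 8.55 and 8.47 in control tumors 1 and 2, near deficient tumors (8.41 to 8.78), and 7.33 to 7.40 in control tumors 3 to 5. Ruvbl1 was 9.31 and 9.40 in control tumors 1 and 2 and 10.41 to 10.62 in control tumors 3 to 5. Wrap53, which carries telomerase to Cajal bodies, was the member that fell. It was 9.08, 8.92 and 8.75 in normal thymocytes and 8.11 to 8.63 in all tumors, with differences of -0.60 (SE 0.156, limma adjusted p = 0.0125) and -0.51 (SE 0.163, limma adjusted p = 0.0264). None of the 15 passed between tumor groups. Without control tumors 1 and 2, 5 were higher and 4 lower, in a fit that called 4886 of all 19309 genes.

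The proteins of telomeres themselves formed a mixed list. Of 19 shelterin, CST and telomere replication genes 4 were higher and 2 lower in control tumors (median 0.06), and 9 were higher and 2 lower in deficient tumors (median 0.39). Of all genes 13.0% were higher and 11.3% lower in control tumors, near the shares in this list, and 18.7% and 19.0% in deficient tumors. Without normal thymocytes 2 the genes called were 2 higher and none lower in control tumors and 5 higher and 1 lower in deficient tumors, and without normal thymocytes 3 the deficient median was 0.20. None was called lower in control tumors without normal thymocytes 1 or without control tumor 2. After a second quantile normalization 4 were higher and 4 lower in control tumors (median -0.13) and 5 and 4 in deficient tumors (median 0.03). Rif1, which controls replication timing and end repair, rose by log2 2.61 and 3.47, and Atrx, a chromatin remodeler at telomeres, by 2.48 and 3.06. Of the shelterin subunits, Pot1b rose in both tumor groups (0.61 and 0.88), and Terf1 (0.88) and Pot1a (1.03) rose in deficient tumors. Pot1a was also high in control tumors 1 and 2 (8.72 and 8.89), the control tumors with high Terc. It was 9.01 to 9.10 in deficient tumors, 7.45 to 7.69 in control tumors 3 to 5 and 7.75 to 8.16 in normal thymocytes. The CST subunit Stn1 fell by log2 -0.52 and -0.68. Rif1 was the 1 gene of the list called between tumor groups. Without control tumors 1 and 2, 6 were called, in a fit that called 4886 of all 19309 genes. Leaving out any 1 array gave 16 to 1482 called genes in all, and without control tumor 1 or 2 alone 3 of the list were called. None was called after a second quantile or cyclic loess normalization, with a replicate block, in a fit of the tumor arrays alone, without control tumors 3 and 4, or without control tumor 4 or deficient tumor 1, 3 or 4 alone, so the Rif1 call was lost there. It was 8.26 to 8.80 in control and 9.16 to 9.61 in deficient tumors, without overlap, a difference of 0.86 (SE 0.153, limma adjusted p = 0.0294).

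Box C/D particles are the sister particles that guide RNA methylation, and stand-alone pseudouridine synthases work without a guide RNA. Of 10 box C/D ribonucleoprotein genes 6 were higher and none was lower in control tumors (median 0.93), and 7 were higher and 1 lower in deficient tumors (median 1.04). Among them the core protein Nop58 rose by 2.97 and 2.81, the assembly factor Znhit6 by 2.04 and 2.12, and the methyltransferase fibrillarin, Fbl, by 1.15 and 1.18. Of 12 stand-alone pseudouridine synthases 8 were higher and none was lower in control tumors (median 0.81), and 8 were higher and 1 lower in deficient tumors (median 1.16), led by Pus7 (2.38 and 2.72), Pus10 (2.35 and 2.58) and Pus3 (2.21 and 2.74). Beside both lists, 13.0% of all genes were higher and 11.3% lower in control tumors, and 18.7% and 19.0% in deficient tumors. Between tumor groups none of the box C/D genes was called, and Pusl1 was the 1 synthase called (0.90, SE 0.183, limma adjusted p = 0.0461). The Pusl1 call was lost without any 1 array other than control tumor 1 or 2, with a replicate block and in a fit of the tumor arrays alone. Without control tumors 1 and 2 these counts were 1 higher and 2 lower of the box C/D genes and 4 higher of the synthases, and without control tumors 3 and 4 both were 0. The fit without control tumors 1 and 2 called 4886 of all 19309 genes.

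**Figure D4:**
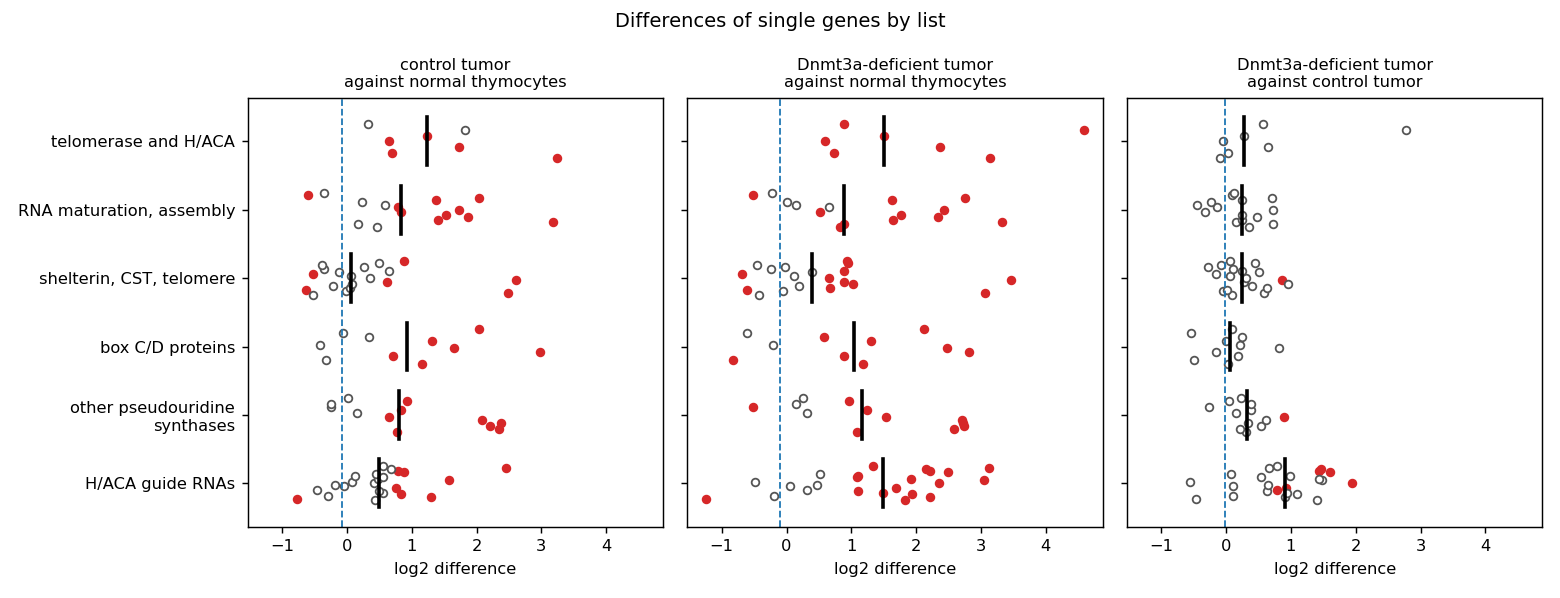
Log2 differences of single genes (points; red passed an adjusted p under 0.05, open did not) in 6 lists and 3 comparisons on 1 shared horizontal scale; the black bar is the list median and the dashed line the median of all genes. Medians of the telomerase and H/ACA genes were 1.24, 1.51 and 0.27, and only the guide RNAs have more than 1 red point between tumor groups.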

How the data were processed

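Total RNA of 12 thymus samples was measured on whole-transcript arrays, 1 array a sample. The deposited values are log2 intensities, which the authors produced in Affymetrix Expression Console (RMA), according to the submitters' processing notes, without stated versions. Of 23858 probe sets, 1 gene symbol was paired with 20870, several with 1453 and none with 1535; 20822 had a gene ID found in RefSeq (GRCm38.p6). The probe set with the highest mean stood for each of 19309 genes. limma 3.58.1 (R 4.3.3) fitted 3 group means over all 12 arrays (9 residual degrees of freedom), with Benjamini-Hochberg adjustment over all genes and a call at adjusted p under 0.05. Single members were also tested by exact two-sided permutation of arrays, whose smallest possible p was 0.0179 for control tumors against normal thymocytes, 0.0286 for deficient tumors against normal thymocytes and 0.00794 between tumor groups. The fit was tested on simulated data. No batch or scan date is given, so batch and group cannot be told apart.

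The members and lists were chosen with earlier results of these data known. Named were all members, up to 3 called genes of each other list per comparison with the largest differences, and the 3 genes most correlated with Terc, Tert and Dkc1. Shq1, Wrap53, Ruvbl1, Pot1b, Terf1, Stn1, Snora73b, Snora52, Snora41, Scarna17, Znhit6, Fbl, Cd3d, Ptprc, C1qb, Itgam, Adgre1, Cd79a and Cd79b were named after their values were seen. Alternatives were other scalings, a filter on dim genes, the mean of a gene's probe sets, other limma settings, a replicate block, and arrays left out. The alternative without control tumors 3 and 4 was chosen after seeing the data.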

Additional observations from a re-analysis of the deposited data

How the results depend on the processing

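Dkc1, Nop10 and Naf1 were called higher than in normal thymocytes in both tumor groups, and Terc in deficient tumors, under all 22 other settings run. Over all members and comparisons, leaving out 1 array kept the direction and call of 225 values, ended 18 calls, made 2 and turned 7 signs. The other settings kept 185, ended 13, made 5 and turned 7. Some of these fits could not move a difference: those without arrays of the group not compared, the probe set mean (each member has 1), the dim-gene filter, the limma settings and the fit of 2 groups alone. The kept values therefore overstate how far the results were tried. Members called in control tumors against normal thymocytes were 3 after a second quantile normalization and 3 after cyclic loess, and 3 to 5 with 1 array left out; in deficient tumors they were 4 to 7 with 1 array left out. Between tumor groups they were 3 without control tumors 1 and 2, and 0 to 1 with 1 array left out. Genes called between tumor groups were 158, but 378 with each array centred on its median (331 higher and 47 lower, against 114 and 44), 1 in a fit of the tumor arrays alone, 4886 without control tumors 1 and 2, 6 without control tumors 3 and 4, and 16 to 1482 with 1 array left out. With 1 array left out they were 3199 to 5074 for control tumors and 5409 to 7652 for deficient tumors against normal thymocytes. Signs that turned were all of small differences between tumor groups that were not called: Nhp2 was 0.02 with each array centred on its median and 0.11 without control tumors 3 and 4; Gar1 was -0.07 after a second quantile normalization, -0.12 after cyclic loess and -0.25 without control tumors 1 and 2; Dkc1 was 0.04 without control tumors 3 and 4. With 1 array left out these differences ranged over -0.17 to 0.03 for Nhp2 and -0.10 to 0.15 for Gar1. The labels do not say whether replicate numbers pair the samples. Of 10 same-numbered pairs 1 had a correlation of deviations over 0.1 (range -0.13 to 0.34) and 4 correlated best with their own number. So few arrays cannot settle whether there was a pairing. With the number as a replicate block, members called were 4, 7 and 0 and genes called 4626, 6928 and 104 in the 3 comparisons, Terc was called in control tumors (2.58, limma adjusted p = 0.0465), Nhp2 (0.52, 0.0553) and Gar1 (0.60, 0.0839) were not, and the Nhp2 difference between tumor groups was 0.00. The cause of these changes was not tested. The files hold no detection call, so how far the Tert signal lay above background is not known here.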
